A study of Mus musculus with 18 samples.

Results

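The uterine gland genes Foxa2, Lrp2, Prss28, Prss29, Klk1, Cxcl15, Ttr and Calca were followed in surgically induced ectopic lesions, eutopic endometrium and uterus of mice. They were chosen by name, as the array probes whose accession maps to these 8 symbols. They were 8 of the 22911 genes that could be named on the array, read by 13 probes. The brightest probe stood for each gene. A gene was tested if its signal was well above background, by the scanner software's own call, on at least 3 of the 18 arrays. All 8 genes passed among 33179 features, Ttr with exactly 3 such arrays and Cxcl15 with 5.

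The 6 groups were lesions, eutopic endometrium and uterus of ERBOE mice, whose labels state an excess of oestrogen receptor beta, and the same tissues of the control genotype PRCre/+. PRCre is a Cre knock-in at the progesterone receptor gene, and the sources used here do not give how the ERBOE allele was built. Lesions were ERBOE or PRCre uterine fragments, cut with a 2 mm punch at 8 weeks of age and implanted singly into intact wild-type C57BL/6J hosts, so that host cells can be part of the harvested tissue. Eutopic endometrium was the uterine tissue of ERBOE or PRCre mice in which a wild-type fragment had been implanted at 8 weeks of age. Lesions and eutopic tissue were harvested at estrus 4 weeks after surgery. The uterus groups were mice of 12 weeks at estrus that had no operation. Each array carried RNA pooled from 3 animals, with 3 arrays from 9 animals in each group, so the spread between arrays is a spread between pools. For ERBOE lesions and eutopic endometrium, the source names speak of mice free of endometriosis. The titles say otherwise and were followed.

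Uterine glands are epithelial tubes that open into the lumen and secrete proteins needed for implantation. FOXA2 is a forkhead transcription factor of the gland epithelium, and mice that lack it in the uterus lose glands or their function. The other genes encode products of the gland cells: the endocytic receptor megalin (Lrp2), a pair of implantation serine proteases (Prss28 and Prss29), tissue kallikrein (Klk1), the chemokine CXCL15, the thyroid hormone and retinol carrier transthyretin (Ttr), and calcitonin and its related peptide (Calca).

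The 75th percentile signal was 239.6 on PRCre uterus replicate 1 and between 455.1 and 744.7 on the other 17 arrays, and 0 spots were saturated. All values below are the log2 signal minus the array's own 75th percentile, called the scaled log2 signal, so that 0 is the 75th percentile. The arrays of slide 1 held no eutopic sample and those of slide 3 no PRCre lesion. Esr2, the gene of oestrogen receptor beta, read 2.19 ± 0.17 in ERBOE lesions against 2.45 ± 0.07 in PRCre lesions (SD, n = 3 each). In eutopic endometrium it read 2.44 ± 0.30 in ERBOE against 2.43 ± 0.25 in PRCre mice, and in uterus 2.45 ± 0.08 against 2.69 ± 0.16. The sources used here do not say whether that probe reads the ERBOE transcript, so it is no check of the genotypes, which are named as the labels give them.

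Prss28 and Prss29 share sequence before their start sites. They are the pair of genes whose high arrays coincided in the results below. Whether the shared sequence has a part in that was not tested. The 250 bases before each start are shown from RefSeq (GRCm38.p6, + strand, 5′ to 3′), with the stretches of at least 10 identical aligned bases in capitals. The Prss28 window is chr17:25308396-25308645 and the Prss29 window chr17:25318404-25318653.
Prss28: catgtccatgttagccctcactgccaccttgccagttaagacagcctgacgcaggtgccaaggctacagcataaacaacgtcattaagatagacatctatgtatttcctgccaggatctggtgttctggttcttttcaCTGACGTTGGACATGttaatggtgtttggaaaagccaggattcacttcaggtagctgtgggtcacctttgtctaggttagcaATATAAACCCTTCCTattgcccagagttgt
Prss29: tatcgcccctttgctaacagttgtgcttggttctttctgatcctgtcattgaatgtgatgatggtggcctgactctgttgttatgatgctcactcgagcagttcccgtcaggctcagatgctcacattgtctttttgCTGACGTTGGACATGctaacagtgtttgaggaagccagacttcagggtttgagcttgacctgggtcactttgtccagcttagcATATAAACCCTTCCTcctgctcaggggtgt
Both capital stretches were 15 bases long and lay within 1 base of the same distance from each start. Aligned from end to end, the windows were identical at 173 of 271 columns (63.8%), while the other pairs of member windows ranged between 45.4% and 52.4%.

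Motifs were searched on both strands of these 250-base windows for the 7 members that the RefSeq table holds, and of the 32851 windows in that table. TATAAA lay 29 to 24 bases before both the Prss28 and the Prss29 start, inside the stretch nearest to the start. It also lay 27 to 22 bases before the Cxcl15 start and, on the other strand, at positions -208 to -203 from the Foxa2 start, and 12.4% of all windows hold it. GGTCA, the half-site of oestrogen receptors, was found in Prss28, Prss29, Klk1 and Calca, and 35.2% of all windows hold it. Of forkhead sites, only the forms TGTTTAC (3.17% of windows) and TGTTTGC (4.3%) were searched, and neither was in a member window. The full oestrogen response element, GGTCA and TGACC with 3 bases between them (0.0639%), was in no member window either. These are matches of letters and were not tested as binding sites.

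Foxa2 was the member that passed the test. It read -2.99, -1.23 and -2.51 in ERBOE lesions and -3.39, -6.66 and -6.88 in PRCre lesions. In eutopic endometrium it read 0.43, 0.72 and 0.39 in ERBOE and -0.01, -0.56 and -1.88 in PRCre mice. In uterus it read -0.87, -0.52 and -0.51 in ERBOE and -2.83, -0.43 and 0.15 in PRCre mice. All lesion arrays of a genotype lay below all arrays of the other tissues of that genotype, and the lowest values were those of PRCre lesion replicates 2 and 3, which were not well above background.

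Averaged over the genotypes, Foxa2 fell by 3.79 ± 0.62 log2 units in lesions relative to eutopic endometrium (limma adjusted p = 0.007). Foxa2 was 1 of 8 members called in this comparison, where 1.24% of all features were called, 0.307% lower and 0.931% higher. Relative to uterus it fell by 3.11 ± 0.62 (limma adjusted p = 0.0175), again as 1 of 8 members, where 2.09% of all features were called, 0.669% lower and 1.42% higher. With 2 of 6 lesion arrays not well above background, the size of these differences rests in part on readings near background. With background modelled by normexp they were -2.39 (adjusted p = 0.000883) and -1.83 (adjusted p = 0.00614). Over the leave-one-out fits, the difference from eutopic endometrium ranged from -4.36 to -3.48 with adjusted p at most 0.0251. The call against uterus ended without PRCre lesion replicate 2 (-2.85, adjusted p = 0.055) and without ERBOE lesion replicate 1 (-2.92, adjusted p = 0.0566).

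**Figure D1:**
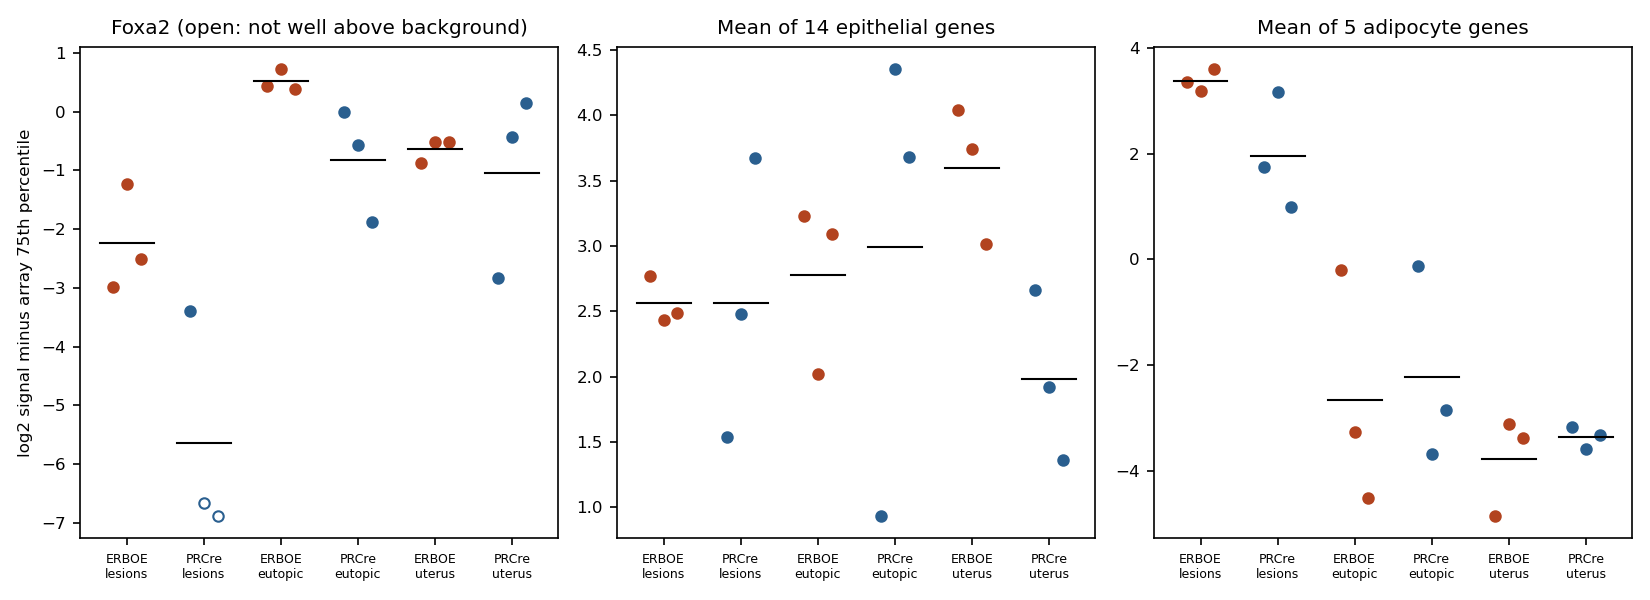
Scaled log2 signal (log2 signal minus the array's 75th percentile, y axis) on each array, in the 6 groups along the x axis, for Foxa2, for the mean of 14 epithelial genes and for the mean of 5 adipocyte genes. Points are arrays of 3 pooled animals, bars are group means, and open points were not well above background. Within each genotype Foxa2 lies lowest and the adipocyte mean highest in the lesions. The epithelial mean overlaps between tissues, except that ERBOE lesions lie below ERBOE uterus.

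Within the genotypes the Foxa2 difference did not pass. Against eutopic endometrium it was -2.76 ± 0.88 in ERBOE lesions (limma adjusted p = 0.234) and -4.83 ± 0.88 in PRCre lesions (limma adjusted p = 0.138). Against uterus it was -1.61 ± 0.88 in ERBOE lesions (limma adjusted p = 0.516) and -4.61 ± 0.88 in PRCre lesions (limma adjusted p = 0.0767). Groups that did not overlap in this direction made up 13.6% of all features for ERBOE lesions against eutopic endometrium, 4.04% for PRCre lesions, and 11.6% and 8.93% for the same genotypes against uterus. On slide 2, which held both tissues in both genotypes, the lesion minus eutopic difference was -3.46, from 3 lesion arrays, of which 1 was not well above background, and 2 eutopic arrays. It was -3.12 on slide 3, from 1 lesion and 4 eutopic arrays.

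In these bulk samples, fewer gland cells and less Foxa2 RNA per gland cell cannot be told apart. The 14 general and luminal epithelial genes, among them Krt8, Cdh1 and Epcam, were well above background on every array, and 0 of 14 were called between tissues. Their mean was 2.56 in ERBOE and 2.56 in PRCre lesions (arrays 1.54 to 3.67 over both), 2.78 and 2.99 in eutopic endometrium (0.93 to 4.35), and 3.60 and 1.98 in uterus (1.36 to 4.04). In ERBOE mice all lesion arrays (2.44 to 2.77) lay below all uterus arrays (3.02 to 4.04). With each array also shifted to an equal mean of Krt8, Krt18, Krt19, Cdh1 and Epcam, Foxa2 fell by 3.38 in lesions relative to eutopic endometrium (limma adjusted p = 0.0102). Relative to uterus it was then -2.71 without a call (limma adjusted p = 0.0626).

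Some markers of other cells moved with the lesions. Averaged over genotypes, adipocyte genes (Adipoq, Plin1, Fabp4 and Cidec, not Lep) were called higher against both other tissues, 4 of 5. Of all features, 0.931% were called higher against eutopic endometrium and 1.42% against uterus. The same 4 genes were called within ERBOE mice but not within PRCre mice. The list mean was 3.38 in ERBOE and 1.96 in PRCre lesions. It was -2.65 and -2.22 in eutopic endometrium and -3.78 and -3.35 in uterus. The 6 leukocyte genes averaged 0.48 in ERBOE and 0.90 in PRCre lesions, -0.64 and -0.83 in eutopic endometrium, and -1.31 and -0.27 in uterus. Among them, S100a8 was called higher in lesions against both other tissues, averaged over genotypes. Ncr1 went the other way, at -4.27 in ERBOE lesions against -3.06 in eutopic endometrium and -3.07 in uterus. In PRCre mice Ncr1 read -3.07 in lesions, -2.92 in eutopic endometrium and -2.06 in uterus. The 6 ciliated cell genes averaged -4.29 in ERBOE and -5.13 in PRCre lesions, -3.81 and -3.27 in eutopic endometrium, and -4.19 and -3.97 in uterus. All 3 PRCre lesion arrays (-5.33 to -4.91) lay below every other array, and 0 of the 5 tested genes were called. Foxj1, the ciliated cell regulator, was well above background on 2 of 3 ERBOE and 0 of 3 PRCre lesion arrays. It was so on 3 of 3 in eutopic endometrium of each genotype, and on 3 of 3 ERBOE and 2 of 3 PRCre uterus arrays. Other genes of the list differed from Foxj1. Dnah9 was well above background on all 18 arrays and Rsph1 on 3 of 3 PRCre lesion arrays. Tekt1 averaged -3.42 in ERBOE lesions, above -4.04 in ERBOE eutopic endometrium and -5.90 in ERBOE uterus. The endometrial stroma mean stayed between 3.18 and 3.68 in all groups. The part of fat tissue and of ciliated cells in the Foxa2 difference was not tested.

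Between the genotypes, Foxa2 was 3.41 ± 0.88 log2 units higher in ERBOE than in PRCre lesions as fitted (limma adjusted p = 0.777), without a call. The 3 ERBOE lesion arrays lay above the 3 PRCre lesion arrays, which held for 5.2% of all features. With 2 of 3 PRCre lesion arrays not well above background, the size of this difference is not measured. The ERBOE array lay above the PRCre array on slide 1, and above both PRCre arrays on slide 2. In eutopic endometrium it was 1.33 ± 0.88 (limma adjusted p = 1), again with groups that did not overlap, as for 5.13% of features. In uterus it was 0.40 ± 0.88 (limma adjusted p = 0.906). The genotype effect in lesions minus that in uterus was 3.00 ± 1.24 (limma adjusted p = 0.67), without a call.

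For genotype, 0 of 8 members were called in lesions, eutopic endometrium or uterus, where limma called 0% of all features (0 of 33179 in each). At an unadjusted p under 0.05, 1480 features passed in lesions, 977 in eutopic endometrium and 3280 in uterus. Averaged over the 3 tissues, 0 of 8 members were called, with 0.0121% of features called. The median member difference, ERBOE minus PRCre, was 0.73 in lesions, -0.74 in eutopic endometrium and -1.20 in uterus. The medians of all features were -0.06, -0.01 and -0.11 in the same order of tissues. The 3 contrasts of a genotype effect between tissues also called 0 of 8 members, with 0% of features called and 545 to 2238 features at an unadjusted p under 0.05. The same held for the 3 comparisons of eutopic endometrium with uterus, with 0% called and 1109 to 2212 features at that unadjusted p.

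Prss28 and Prss29 encode secreted trypsin-like proteases of the gland cells that act at implantation. Prss28 read -1.40, 4.63 and -2.59 in ERBOE lesions and 1.95, -1.92 and -2.69 in PRCre lesions. In eutopic endometrium it read -1.76, 4.27 and -3.20 in ERBOE and 4.90, -2.80 and 1.00 in PRCre mice. In uterus it read -2.16, -1.25 and -2.84 in ERBOE and -2.59, 5.20 and 2.21 in PRCre mice. High and low arrays stood side by side in every group but ERBOE uterus, where all 3 were low.

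Prss29 read -2.35, 5.11 and -4.60 in ERBOE lesions and 3.12, -4.86 and -2.19 in PRCre lesions. In eutopic endometrium it read -1.62, 5.78 and -2.60 in ERBOE and 6.17, -3.35 and 3.53 in PRCre mice. In uterus it read -2.05, -0.32 and -1.09 in ERBOE and -5.35, 6.94 and 3.12 in PRCre mice. The arrays that were high for Prss28 were high for Prss29 as well. Both genes exceeded the 75th percentile on the same 7 arrays, 2 of ERBOE and 5 of PRCre mice, and lay below it on the other 11. On the 7 arrays Prss28 was at least 1.00 and Prss29 at least 3.12, while on the other 11 they reached at most -1.25 and -0.32.

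No tissue or genotype difference of either protease passed the test. In lesions against eutopic endometrium, averaged over genotypes, Prss28 differed by -0.74 ± 1.77 (limma adjusted p = 0.891) and Prss29 by -2.28 ± 2.43 (limma adjusted p = 0.739). The range of 2 standard errors on each side runs from -4.27 to 2.80 for Prss28 and from -7.14 to 2.57 for Prss29, so differences of several log2 units either way lie within the error. In uterus, ERBOE minus PRCre was -3.69 ± 2.50 for Prss28 (limma adjusted p = 0.649) and -2.73 ± 3.43 for Prss29 (limma adjusted p = 0.826).

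The spread between replicate pools was the common feature of the proteases. The within-group SD of Prss29 was 4.62 log2 units, with 0 of 33179 features larger, and that of Prss28 was 3.36, with 7 larger. Within PRCre uterus alone, the highest Prss28 array stood 221-fold over the lowest, both well above background. Klk1 followed with 2.60 (21 features larger), Ttr with 1.92 (221 larger) and Lrp2 with 1.62 (577 larger). Cxcl15 had 1.47, Foxa2 1.16 and Calca 0.81, against a median of 0.49 over all features. All 8 members therefore had a larger spread between replicate arrays than the median feature, which was not matched for signal. Ttr and Cxcl15 were well above background on only 3 and 5 of the 18 arrays. Their spread therefore rests in part on readings near background.

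**Figure D2:**
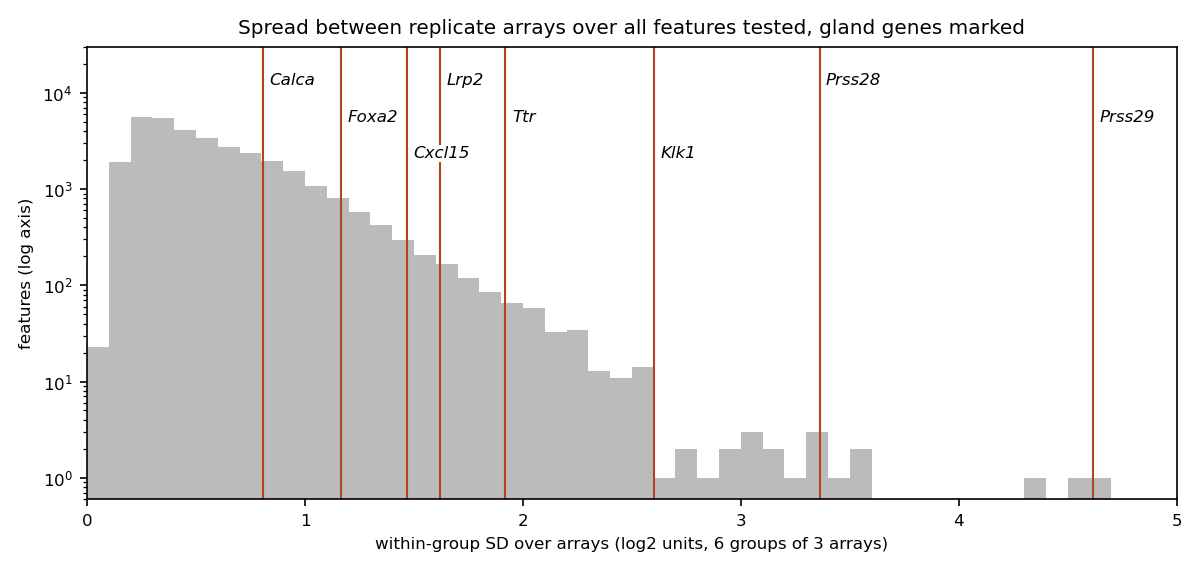
Number of tested features (y axis, log scale) by their within-group SD over arrays (x axis, log2 units, 6 groups of 3 arrays). Vertical lines mark the 8 gland genes, from Calca at 0.81 to Prss29 at 4.62, the largest of the 33179 features.

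The arrays fell into separate clusters for this pair, the 7 high and the 11 low ones. Within the 7, Prss28 and Prss29 correlated at r = 0.922, and within the 11 at r = 0.307. The points share arrays, pools and scaling, the clusters were drawn from these values, and no p is given. Whether the probes of these related genes read each other's RNA was not tested. The other Prss28 probe correlated with the brightest at 0.982 and was well above background on the same 7 arrays and no others. Among 15509 genes, Spink1, a secreted inhibitor of trypsin-like proteases, was the most like both Prss28 (r = 0.913) and Prss29 (r = 0.886), over all 18 arrays and so mostly by this split. Spink1 exceeded the 75th percentile on 6 arrays, all of them among those 7. Maob, Nfil3 and Snx1 were also among the 5 most like Prss28 or Prss29, with r between 0.836 and 0.889.

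**Figure D3:**
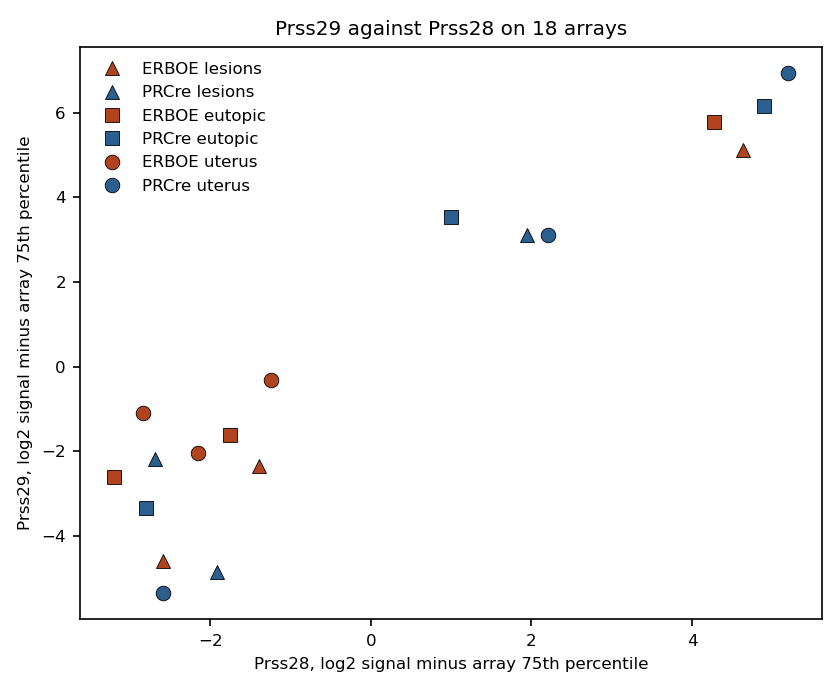
Scaled log2 signal of Prss29 (y axis) against Prss28 (x axis), 1 point per array, coloured by genotype and shaped by tissue. The 7 arrays at the upper right come from 5 of the 6 groups, and 11 arrays lie below 0 on both axes.

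Klk1 encodes tissue kallikrein, which releases kinins from kininogen. It read 0.81, -2.56 and -4.24 in ERBOE lesions and 5.96, -2.40 and -2.91 in PRCre lesions. In eutopic endometrium it read -3.01, -1.24 and -3.41 in ERBOE and 2.96, -1.25 and -1.37 in PRCre mice. In uterus it ranged from -3.30 to -1.47 in ERBOE and from -3.41 to -1.60 in PRCre mice. Single arrays stood far above their replicates in PRCre lesions, PRCre eutopic endometrium and ERBOE lesions. PRCre lesion replicate 1 was also high for Prss28 and Prss29, whereas PRCre uterus replicates 2 and 3, both high for those proteases, were low for Klk1. No Klk1 difference passed, with adjusted p of 0.941 for lesions against eutopic endometrium and 0.662 against uterus, averaged over genotypes (limma).

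The genes most like Klk1 were 5 of its paralogs. Klk1b5 correlated with it at r = 0.998, and Klk1b26, Klk1b4, Klk1b3 and Klk1b24 at 0.975 to 0.994, all over 18 arrays. Not all paralogs had this pattern: Klk1b11 was not well above background in PRCre lesions (mean -6.89), where the Klk1 mean was highest, and averaged -4.09 in ERBOE uterus. Whether the probes of these related genes read each other's RNA was not tested, so their values are uncertain. Of the 34 other serine protease and kallikrein genes considered, 26 were tested and 0 were called in lesions against either tissue. The smallest p against eutopic endometrium belonged to Klk11 (-1.52 ± 0.44, limma adjusted p = 0.132). The 6 kinin pathway genes were not called either. Klkb1, the plasma prekallikrein gene, was nearest at -1.19 ± 0.27 against eutopic endometrium (limma adjusted p = 0.0508).

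Lrp2 encodes megalin, an endocytic receptor of the apical membrane that takes up carrier proteins. It read -3.42, -0.90 and -1.58 in ERBOE lesions and -2.66, -3.23 and -4.29 in PRCre lesions. ERBOE eutopic endometrium gave -2.76, 0.40 and -2.26, and PRCre eutopic endometrium gave -1.25, -2.60 and -2.91. ERBOE uterus gave -3.0, -1.96 and -0.62, and PRCre uterus gave -3.32, -1.50 and 2.31. The groups overlapped in all comparisons. The lesion differences averaged over genotypes were -0.78 ± 0.86 against eutopic endometrium (limma adjusted p = 0.745) and -1.33 ± 0.86 against uterus (limma adjusted p = 0.493). The 3 Lrp2 probes correlated at 0.799 to 0.953. Lrp2 and Foxa2 correlated at r = 0.606 over the 18 arrays (Spearman 0.688), and at 0.657 after group means were taken off. Of the 9 megalin partners and receptors of its family, 0 were called in lesions, with Amn (1.16 ± 0.45, limma adjusted p = 0.284) nearest against eutopic endometrium.

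Cxcl15 encodes a chemokine of the ELR class, which attract neutrophils. It was well above background on 0 of 6 lesion arrays, all 3 ERBOE eutopic arrays, 1 PRCre eutopic array and 1 PRCre uterus array. The lesion arrays lay between -7.94 and -5.66. It read -2.23, -3.16 and -1.89 in ERBOE eutopic endometrium and -3.22, -7.55 and -6.45 in PRCre eutopic endometrium. ERBOE uterus gave -6.96, -5.34 and -4.92, and PRCre uterus gave -3.99, -6.80 and -2.28. Only ERBOE eutopic endometrium had measurable signal on every array.

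In ERBOE mice Cxcl15 was at least 4.61-fold lower in lesions than in eutopic endometrium, without a call (limma adjusted p = 0.142), and lesion arrays lay below all eutopic arrays, as for 13.6% of features. The bound sets the bright group's mean against, on each array of the dim group, the higher of its own signal and the lowest signal called well above background. Averaged over genotypes, it was at least 1.94-fold lower (limma adjusted p = 0.122). With arrays weighted by quality, Cxcl15 was called lower in ERBOE lesions (adjusted p = 0.0231) and over both genotypes (adjusted p = 0.0449). Those calls rest on lesion readings that were well above background on 0 of 6 arrays. In ERBOE mice it was at least 5.42-fold higher in eutopic endometrium than in uterus (limma adjusted p = 1), with groups that did not overlap, as for 7.09% of features. ERBOE minus PRCre in eutopic endometrium was 3.32 as fitted (limma adjusted p = 1), and the groups did not overlap, as for 5.13% of features. Only 1 of 3 PRCre eutopic arrays was well above background, so the size of this difference is not measured. The ERBOE eutopic arrays lay above the PRCre ones within slide 2 and within slide 3.

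The list of related CXC genes held the ELR chemokines Cxcl1, Cxcl2, Cxcl3, Cxcl5 and Ppbp, their receptors Cxcr1 and Cxcr2, and Pf4, a CXC chemokine that lacks the ELR motif. All 8 were higher as fitted in lesions than in either tissue. The median difference was 2.65 against eutopic endometrium and 2.95 against uterus, where all features had medians of -0.09 and -0.07. Cxcl2, Cxcl3, Ppbp and Cxcr1 were well above background on 0 of 3 uterus arrays of each genotype. Cxcl5 and Cxcr2 were so on 1 of 3. The medians and the sizes against uterus therefore rest in part on readings near background. Against eutopic endometrium, 2 of 8 rose: Pf4 by 1.61 ± 0.27 (limma adjusted p = 0.00866) and Cxcl3 by 3.88 ± 0.73 (limma adjusted p = 0.0165). Cxcl3 was well above background on 0 of 3 ERBOE and 1 of 3 PRCre eutopic arrays. The size of its rise is therefore not measured. Against uterus, Pf4, Cxcl3 and Cxcl5 rose, 3 of 8, Cxcl5 by 4.96 ± 1.18 (limma adjusted p = 0.0436), a call that ended in 13 alternatives with adjusted p up to 0.125. Pf4 is best known as a platelet chemokine, and S100a8, a neutrophil gene, rose by 4.76 in the same comparison with eutopic endometrium. The Pf4 calls ended when arrays were scaled to epithelium and the Cxcl3 calls with only the groups compared (adjusted p at most 0.0823). The part of leukocytes in these differences was not tested.

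Ttr, which encodes transthyretin, was at the limit of detection. Its brightest probe was well above background on ERBOE eutopic replicate 2 (-1.25), PRCre eutopic replicate 2 (-2.31) and ERBOE uterus replicate 3 (-3.90). The other 15 arrays lay between -7.81 and -4.34. The other Ttr probe was well above background on 0 arrays, and the probes correlated at only 0.218. No Ttr difference passed the test, with limma adjusted p between 0.528 and 0.664 for lesions against the other tissues averaged over genotypes. Albumin and the other 9 liver and pancreas genes had list means between -5.18 and -4.26 in the 6 groups, but the genes differed. Albumin averaged -3.08 in ERBOE and -4.16 in PRCre lesions, well above background on 3 and 2 of 3 arrays. It averaged -5.68 and -5.23 in eutopic endometrium and -6.62 and -4.79 in uterus. Cela1 was well above background on all 18 arrays.

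Of 10 tested genes that carry or handle retinol and thyroid hormone, 2 rose in lesions against each tissue. Rbp4, the retinol-binding protein that circulates with transthyretin and is also made by adipocytes, rose by 1.80 ± 0.28 against eutopic endometrium (limma adjusted p = 0.0048) and by 1.98 ± 0.28 against uterus (limma adjusted p = 0.00165). Aldh1a3, a retinoic acid-making enzyme, rose by 3.07 ± 0.65 against eutopic endometrium (limma adjusted p = 0.0331) and by 4.68 ± 0.65 against uterus (limma adjusted p = 0.00163). Aldh1a3 was well above background on 1 of 3 ERBOE and 0 of 3 PRCre uterus arrays. The size of its rise against uterus is therefore not measured. Its call against eutopic endometrium ended in 9 leave-one-out fits, with adjusted p up to 0.0989, and that of Rbp4 when scaled to epithelium (adjusted p = 0.0529). The part of fat tissue in the Rbp4 difference was not tested.

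Calca encodes calcitonin and, by alternative splicing, the calcitonin gene-related peptide. Its brightest probe read -2.30, -2.88 and -3.49 in ERBOE lesions and -2.78, -3.58 and -2.73 in PRCre lesions. ERBOE eutopic endometrium gave -5.81, -3.71 and -5.75, and PRCre eutopic endometrium gave -3.42, -4.46 and -3.24. ERBOE uterus gave -4.91, -4.38 and -4.07, and PRCre uterus gave -3.47, -1.50 and -3.41. Lesions were the tissue in which all 6 arrays were well above background, against 4 of 6 in each of the others. Within ERBOE mice the lesion arrays lay above all others.

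By this probe, ERBOE lesions minus ERBOE eutopic endometrium was 2.20 ± 0.61 (limma adjusted p = 0.156), and groups that did not overlap in this direction made up 6.84% of features. Against ERBOE uterus it was 1.57 ± 0.61 (limma adjusted p = 0.302), with 8.73% of features not overlapping. Against the other tissues, PRCre lesions differed by 0.68 ± 0.61 and -0.23 ± 0.61, without a call. ERBOE minus PRCre in uterus was -1.66 ± 0.61 (limma adjusted p = 0.416), with ERBOE arrays below all PRCre arrays, as for 8.61% of features, while 6.36% of features did not overlap the other way.

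The other Calca probe, annotated to another RefSeq transcript of the gene, gave larger differences. It read -1.72, -3.20 and -1.15 in ERBOE lesions and -0.89, -4.09 and -2.15 in PRCre lesions, well above background on all 6. ERBOE eutopic endometrium gave -6.85, -3.79 and -6.93, and PRCre eutopic endometrium gave -2.51, -6.02 and -4.51. In uterus it read -6.86, -6.92 and -6.64 in ERBOE and -3.87, -3.50 and -4.23 in PRCre mice, with 1 of the 6 well above background. The lesion arrays were the highest in ERBOE mice, while lesions and eutopic endometrium overlapped in PRCre mice.

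With every probe as its own feature, this probe rose by 3.14 ± 0.69 in lesions against uterus averaged over genotypes as fitted (limma adjusted p = 0.0309), where 1.99% of 41388 probes were called. In ERBOE mice alone it was at least 7.17-fold higher in lesions than in uterus, called with a limma adjusted p of 0.0276, where 1.18% of probes were called. Against eutopic endometrium it was 2.90 ± 0.69 (limma adjusted p = 0.0594), without a call. Both calls ended under normexp (adjusted p = 0.0567 and 0.0721) and in several leave-one-out fits, with adjusted p up to 0.0841 averaged over genotypes and 0.121 in ERBOE mice. The probes correlated at 0.775 over the 18 arrays.

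Chga, a marker of neuroendocrine cells, rose in lesions averaged over genotypes. The rise was 2.87 ± 0.52 against uterus and 3.00 ± 0.52 against eutopic endometrium (limma adjusted p = 0.0108 and 0.0106). Chga was well above background on 0 of 3 ERBOE and 1 of 3 PRCre uterus arrays. In eutopic endometrium it was so on 1 of 3 ERBOE and 0 of 3 PRCre arrays, and the sizes rest in part on readings near background. Chga was 1 of 7 nerve and neuroendocrine genes called there, and its part in the Calca difference was not tested. Of the 7 tested genes of the calcitonin family and its receptors, 0 were called in lesions. Calcb, the related peptide gene, was nearest against eutopic endometrium at 2.30 ± 0.58 (limma adjusted p = 0.0769), where it was well above background on 0 arrays. Ramp3, a receptor partner, was nearest against uterus at -1.68 ± 0.62 (limma adjusted p = 0.183).

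**Figure D4:**
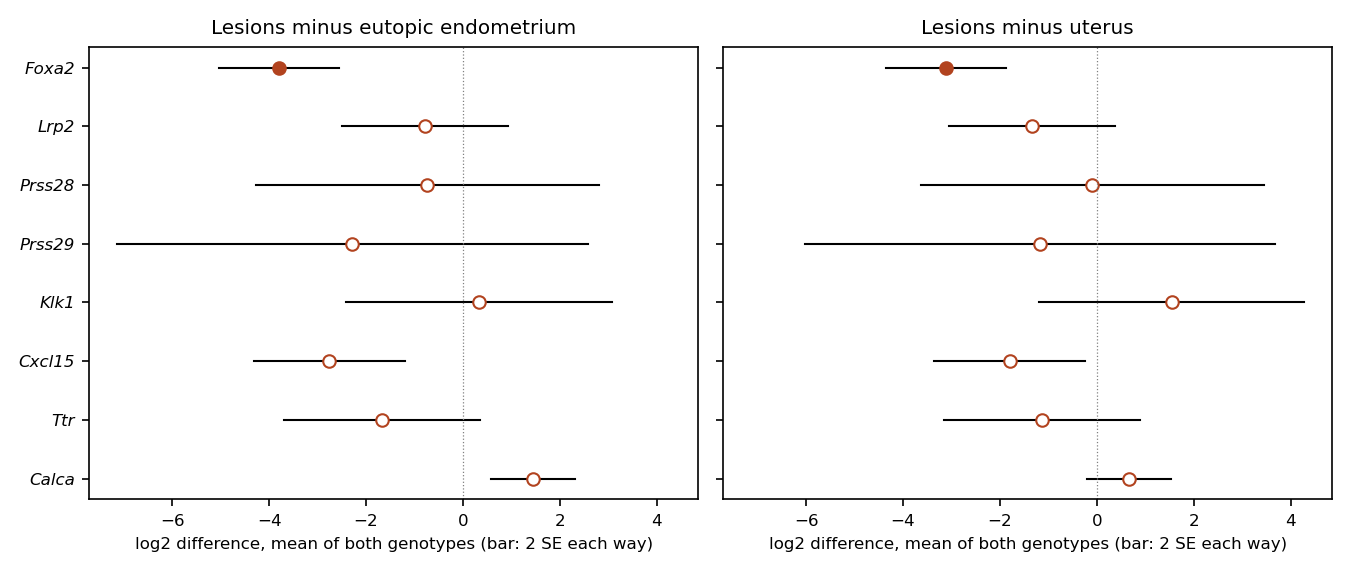
Log2 difference (x axis) of the 8 gland genes (y axis) between lesions and eutopic endometrium and between lesions and uterus, averaged over the genotypes and read by the brightest probe. Points are limma estimates with 2 standard errors on each side, and filled points passed the test. Only Foxa2 is filled, at -3.79 and -3.11, while the bars of Prss28, Prss29 and Klk1 are the widest.

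Against eutopic endometrium, averaged over genotypes, 6 of 8 point estimates were below 0 with a median of -1.23, beside -0.09 for all features. Against uterus, 6 of 8 were below 0 with a median of -1.15, beside -0.07 for all features. Klk1 and Calca were the 2 above 0 in both. The genotypes differed in this count against uterus, where 4 of 8 were below 0 in ERBOE lesions (median 0.10) and 7 of 8 in PRCre lesions (median -2.52). Against eutopic endometrium, 5 of 8 were below 0 in ERBOE lesions (median -0.78) and 6 of 8 in PRCre lesions (median -1.70). The difference between genotypes in these counts was not tested. Within the genotypes, 0 of 8 members were called in any lesion comparison. Of all features, 0.6% were called in ERBOE mice against eutopic endometrium (0.464% higher, 0.136% lower) and 0.00301% in PRCre mice. Against uterus, 1.24% were called in ERBOE mice (0.949% higher, 0.292% lower) and 0.00904% in PRCre mice (0.00603% higher).

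Of the 8 gland genes beyond the members (Lif, Spink1, Sox9, Sox17, Lgr5, Aldh1a1, Pax8 and Wnt7b), 1 fell in lesions against uterus and 0 were called against eutopic endometrium. Sox9, a transcription factor of gland epithelium, fell by 1.73 ± 0.39 (limma adjusted p = 0.0355), with ERBOE lesion replicate 1 left without a usable value for this gene. That call ended in 13 alternatives, with adjusted p up to 0.483. Sox17 differed by -0.71 ± 0.24 against eutopic endometrium (limma adjusted p = 0.21). Of the 18 genes that govern gland formation, 0 were called. Msx1 (-1.13 ± 0.41, limma adjusted p = 0.246) was nearest against eutopic endometrium and Pgr (-1.12 ± 0.42, limma adjusted p = 0.187) against uterus. Foxa1, the member of the Foxa family that was tested, was 1.98 ± 0.84 in lesions against eutopic endometrium (limma adjusted p = 0.336).

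The genes whose pattern was most like Foxa2 over the 18 arrays were Slc38a5 (r = 0.862), C4bp (0.838), Ano1 (0.808), Slc25a14 (0.802) and Rps6ka6 (0.785). After group means were taken off, Slc38a5 still correlated with Foxa2 at 0.816 and Ano1 at 0.809. Asl, Lrrc3b, Hmgn3, Gspt2 and Uggt2 were most like the mean of the 8 members, each scaled to equal spread, with r between 0.847 and 0.896. Calca was most like Vgll3 (r = 0.903). These correlations describe arrays that share pools, slides and scaling, and carry no p.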

How the data were processed

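The authors hybridised Cy3-labelled RNA to 1-colour Agilent mouse arrays. Per the file headers, spot intensity (processed, median and background signal) came from Feature Extraction 11.0.1.1 with an mm9 grid. The deposited value table holds log2 values centred per probe, with column medians between -0.153 and 0.361 and a correlation of 0.9951 to 0.9983 with the centred scanner values. The sources used here do not give how it was made, and it served as an alternative.

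From the processed intensity, control spots and outlier-flagged spots were left out. The log2 values were set relative to the 75th percentile of their array, and replicate spots were averaged. Accessions were matched to RefSeq symbols (GRCm38.p6), naming 32994 of 56605 probes. The array number limits the precision. Limma 3.58.1 (R 4.3.3) fitted 6 group means over 18 arrays (12 residual and 2.49 prior degrees of freedom), with 2-sided tests, Benjamini-Hochberg adjustment over 33179 features and a threshold of 0.05. Errors of differences are standard errors, and those of means are SDs. The fit was tested on simulated data.

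The members, lists and tests were chosen with earlier results of these data known. TATAAA, the half-sites and AGAACA were added to the motif search later. AGAACA lay in the Prss28 window and in 16.1% of all windows. Named genes were the members, and in each list up to 4 called genes or the 2 with the smallest p, and the 5 most alike by correlation. Other names in the text were chosen after their values were seen. The normexp alternative used median signals, because no mean signal column was present, against the plan. The result of 1 marker gene is not reported here. Same-numbered arrays deviated together, by the data alone, in ERBOE against PRCre uterus (r = 0.306 to 0.441), where they also share a slide, and in PRCre lesions against eutopic endometrium (0.133 to 0.335). In the other 7 comparisons the correlations ranged from -0.346 to 0.308 and at least 1 of 3 was under 0.1.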

Additional observations from a re-analysis of the deposited data

How the results depend on the processing

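No member's difference changed direction past the threshold in any of 3736 recomputed values of the brightest probes, of which 3720 kept their side of the threshold, 4 lost a call and 12 gained one. The count of members called in lesions against eutopic endometrium, averaged over genotypes, was 0 with the filter on all 18 arrays, where Foxa2 is no longer tested, and 2 with array weights (Foxa2 and Cxcl15). Against uterus it was 0 with that filter, 0 with only the groups compared (Foxa2 adjusted p = 0.0689) and 0 when scaled to epithelium, with 0 to 1 in leave-one-out fits. In ERBOE lesions against eutopic endometrium it was 1 under normexp (Foxa2) and 2 with array weights (Foxa2 and Cxcl15). In PRCre lesions it was 1 against uterus under normexp and 1 with trended and robust variance (Foxa2 in each), and leave-one-out fits gave 0 to 1 against uterus and 0 to 1 against eutopic endometrium. For ERBOE against PRCre in uterus it was 3 when scaled to epithelium (Prss28, Cxcl15 and Calca). That scaling was chosen after seeing the data and called 16652 features there, where the 14 epithelial genes averaged 3.60 in ERBOE and 1.98 in PRCre uterus. Features called in lesions averaged over genotypes ranged from 232 to 1375 over the alternatives against eutopic endometrium and from 314 to 1982 against uterus, around 411 and 693. Leave-one-out fits gave 212 to 715 and 353 to 1270. Within ERBOE mice the alternatives gave 106 to 1397 and 283 to 1987, and within PRCre mice 0 to 30 and 0 to 96. In 7 of the 9 comparisons within a tissue or genotype, replicate numbers did not pair the arrays. With a replicate block, no call of a member changed. Foxa2 then had adjusted p = 0.0153 against eutopic endometrium and 0.0311 against uterus, features called were 358 and 635, and in PRCre lesions against uterus 15 in place of 3. With slide as a block, Foxa2 had adjusted p = 0.0212 and 0.0273. Cxcl15 and Ttr were not well above background on most arrays, which limits their differences to bounds.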
